A study of Rattus norvegicus with 6 samples.

Results

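The 5 transcripts described here, which the array lists as long noncoding RNAs (lncRNAs), lncRNA3055 (probe RB_p_rnol003055), lncRNA2263 (RB_p_rnol002263), lncRNA1658 (RB_p_rnol001658), lncRNA4605 (RB_p_rnol004605) and lncRNA686 (RB_p_rnol000686), read close to the bottom of the array's scale in the normal rat hippocampus. They are 5 of the 6711 lncRNA probes in the deposited table and were selected by their measured values: every denervated sample lay above every normal sample, and at least 2 of the 6 samples read under 2 on the log2 scale. Because the members were chosen on this contrast, their group difference is given as a description, with no test. The denervated group held 3 hippocampi of adult Sprague-Dawley rats taken on day 7 after transection of the fimbria-fornix (FF) with a wire knife. The normal group held 3 untreated hippocampi of the same strain. The methods describe denervated and untreated tissue from 3 paired rats of both sexes, and mention 3 independent samples. They place RNA extraction from the paired untreated hippocampus on day 7 after transection, and a figure legend pairs each normal hippocampus with a denervated one. This wording may mean both sides of the same operated rats, which is not stated outright. The labels do not say which samples pair, so the groups were compared without pairing. RNA was extracted from whole frozen hippocampus with TRIzol, amplified, labelled with Cy5 and hybridized to the lncDETECT rat array in 1 colour. In such bulk RNA, fewer cells of a type and less RNA per cell cannot be told apart.

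Through the fimbria-fornix run the fibres, cholinergic ones among them, by which the septum reaches the hippocampus, and cutting this tract removes that input. Long noncoding RNAs are transcripts without a recognised protein-coding frame. Many are restricted to few cell types and are present at low abundance in whole tissue, so a microarray often reads them near the signal of an empty spot. On a log2 axis a change between 2 very weak signals looks as large as a change between 2 strong ones.

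By the array's annotation, 3 of the 5 are rat matches of mouse transcripts and 2 are Ensembl rat transcripts. lncRNA3055 stands for the rat match of NR_040465, placed on chromosome 9 from 46285101 to 46288252 on the minus strand, a span of 3152 bases. lncRNA1658 is a rat match of NR_034051 on chromosome 19 from 67469851 to 67469963 on the plus strand, only 113 bases long. lncRNA686 is the rat match of NR_029546 on chromosome 10 from 61729402 to 61729467 on the plus strand, 66 bases long. lncRNA2263 is ENSRNOT00000017616 of gene ENSRNOG00000013200, on chromosome 2 from 278151909 to 278152278 on the minus strand, 370 bases long. lncRNA4605 is ENSRNOT00000065036 of gene ENSRNOG00000042827, on chromosome X from 154231201 to 154234031 on the plus strand, 2831 bases long. The annotation names no genome build, exons or function for any of them. The 2 Ensembl members were looked up by gene identifier in the RefSeq rat gene table, and neither matched. For the 3 matches of mouse transcripts the annotation gives no rat gene identifier, so no lookup was made. No symbol or role is therefore given to the 5, and no sequence is printed. The spans of lncRNA686 and lncRNA1658 are shorter than the usual lower length limit for a long noncoding RNA, and that of lncRNA686 is about as short as a microRNA precursor. Which kind of RNA these probes measure is not settled by the tables used, and the name lncRNA is kept for them only as the array's label.

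The values are the authors' log2 normalized intensity. The median over all probes of a sample was 10.17 to 10.19 and the highest value 15.99. The 5 lncRNAs were thus dim against the array as a whole, except lncRNA2263 in denervated 2, which read 10.10. The low end of the scale had a break: no lncRNA value of any sample lay between -0.18 and 0.07. Below the break were 1014 values, in a narrow mode that reached down to -1.44. Above it, the 376 values from 0 to 3 fell on 44 levels within 0.01 linear units, and neighbouring levels were typically 0.168 linear units apart. The lowest levels stood at 1.05 and 1.22 linear units, so that a single level there already amounts to 0.21 on the log2 scale. How values below the break were produced is not given in the sources used here, and differences that start from them have no fixed meaning as a fold change.

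**Figure D1:**
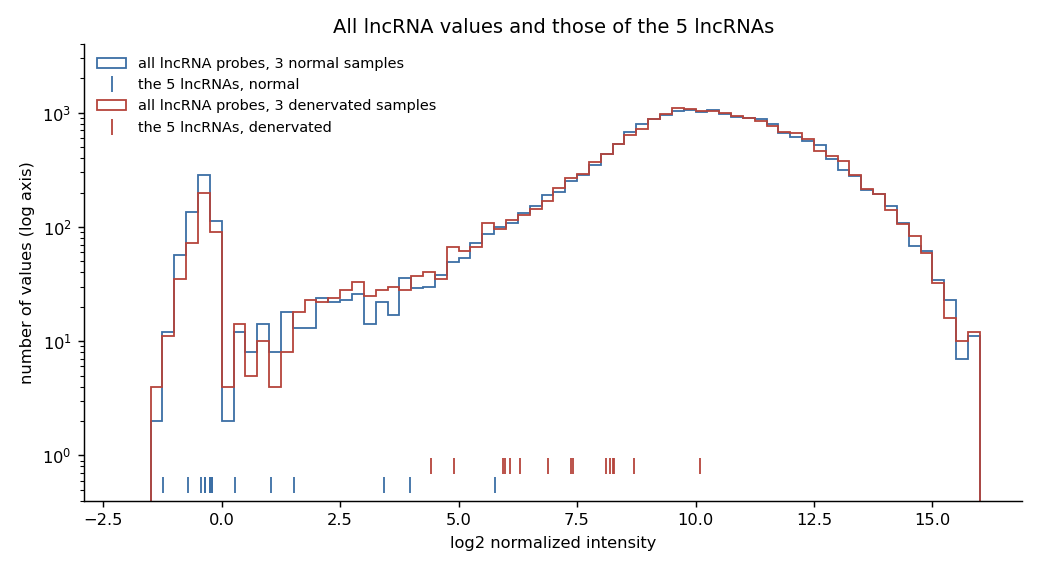
Histogram of log2 normalized intensity (x axis) against the number of values on a log axis (y axis) for all 6711 lncRNA probes, in the 3 normal (blue) and 3 denervated (red) samples, with the values of the 5 lncRNAs as ticks below. A separate mode lies below 0, and 9 of the 15 normal ticks fall in it while no denervated tick lies under 2. The rule that chose the 5 favours this split.

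Values under 2 were not spread evenly over the samples. They numbered 117, 87 and 294 in denervated 1, 2 and 3, and 203, 321 and 166 in normal 1, 2 and 3, or 498 in all denervated and 690 in all normal samples. Normal 2 and denervated 3 held the most. Of the 5 lncRNAs, 5 read under 2 in normal 2, 4 in normal 3 and 3 in normal 1, against 0 in each denervated sample. The rule required low values and placed the lowest of them in normal samples, so this split between groups is no result. The supplement of the study lists lower RNA integrity numbers for the normal than for the treated samples. Neither the number of low values of a sample nor RNA integrity was tested for its part in the differences below.

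lncRNA3055 gave the tightest groups. Its log2 intensity was 6.09, 5.93 and 6.30 in denervated 1, 2 and 3. In normal 1, 2 and 3 it was -0.36, 0.28 and -0.24. The denervated samples lay within 0.37 of each other, and all normal samples sat at the very bottom of the scale, 2 of them below the break and normal 2 at the level of 1.22 linear units. Its mean was 6.11 ± 0.19 (SD, n = 3) after denervation and -0.11 ± 0.34 (SD, n = 3) in the normal samples, a log2 difference of 6.22. In linear units this is 69.5 ± 8.98 against 0.947 ± 0.237 (SD, n = 3 each). The denervated values were themselves among the dimmest of the array, at percentiles 5.81, 5.02 and 8.04 of all probes in their sample. The normal values stood at percentiles 1.59, 4.30 and 1.58. By rank within the sample, therefore, denervated 2 and normal 2 were less than a percentile apart, although their log2 values differed by 5.65, which is also the smallest distance between the groups.

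lncRNA2263 showed the largest log2 difference of all 6711 lncRNAs and the widest spread after denervation. It read 6.89, 10.10 and 4.91 in denervated 1, 2 and 3. The normal samples 1, 2 and 3 read -0.25, -0.36 and 1.04. Denervated 2 stood far above the others, at percentile 48.1, where denervated 1 was at 7.98 and denervated 3 at 6.0, and the normal samples lay at 2.20 to 2.50. Denervated samples averaged 7.30 ± 2.62 (SD, n = 3) and normal samples 0.15 ± 0.78 (SD, n = 3), a log2 difference of 7.15. Without denervated 2 the difference was 5.75, and without denervated 3 it was 8.35. The linear mean of the denervated samples, 416 ± 594 (SD, n = 3), rested mainly on denervated 2 at 1099.8 units, beside 118 in denervated 1 and 30.1 in denervated 3.

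lncRNA1658 had the closest groups. It read 4.42, 7.42 and 8.26 in denervated 1, 2 and 3. It was 3.43, -1.23 and -0.72 in normal 1, 2 and 3. Only 0.99 separated denervated 1 from normal 1. By percentile within the sample their order turned: denervated 1 was at percentile 2.99 and normal 1 at 3.69. It was the single lncRNA among the 5 whose groups overlapped by percentile. The denervated mean was 6.70 ± 2.02 (SD, n = 3) and the normal mean 0.50 ± 2.56 (SD, n = 3), a log2 difference of 6.20 that was 7.67 without normal 1 and 5.34 without normal 2.

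lncRNA4605, the X-chromosomal member, was like lncRNA1658 and lncRNA686 in having a single normal sample above 2. Its values were 5.97, 7.38 and 8.19 in denervated 1, 2 and 3. They were -0.20, -0.43 and 3.98 in normal 1, 2 and 3. This was normal 3, which still lay 1.99 below the lowest denervated sample. It averaged 7.18 ± 1.12 (SD, n = 3) in denervated and 1.12 ± 2.48 (SD, n = 3) in normal hippocampi, a log2 difference of 6.06, with 7.49 when normal 3 was left out.

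lncRNA686 was, by its mean, the brightest of the 5 after denervation, and only lncRNA3055 had a smaller spread there. It read 8.11, 8.70 and 8.28 in denervated 1, 2 and 3, at percentiles 15.04, 21.5 and 17.5. The normal samples 1, 2 and 3 read 5.76, -0.20 and 1.54. Normal 1 was therefore well above the low mode, at percentile 5.66, and the normal samples differed more among themselves than normal 1 differed from any denervated sample. Group means of 8.36 ± 0.30 (SD, n = 3) after denervation and 2.37 ± 3.07 (SD, n = 3) in normal tissue gave a log2 difference of 5.99. Without normal 1 it was 7.69 and without normal 2 it was 4.71.

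**Figure D2:**
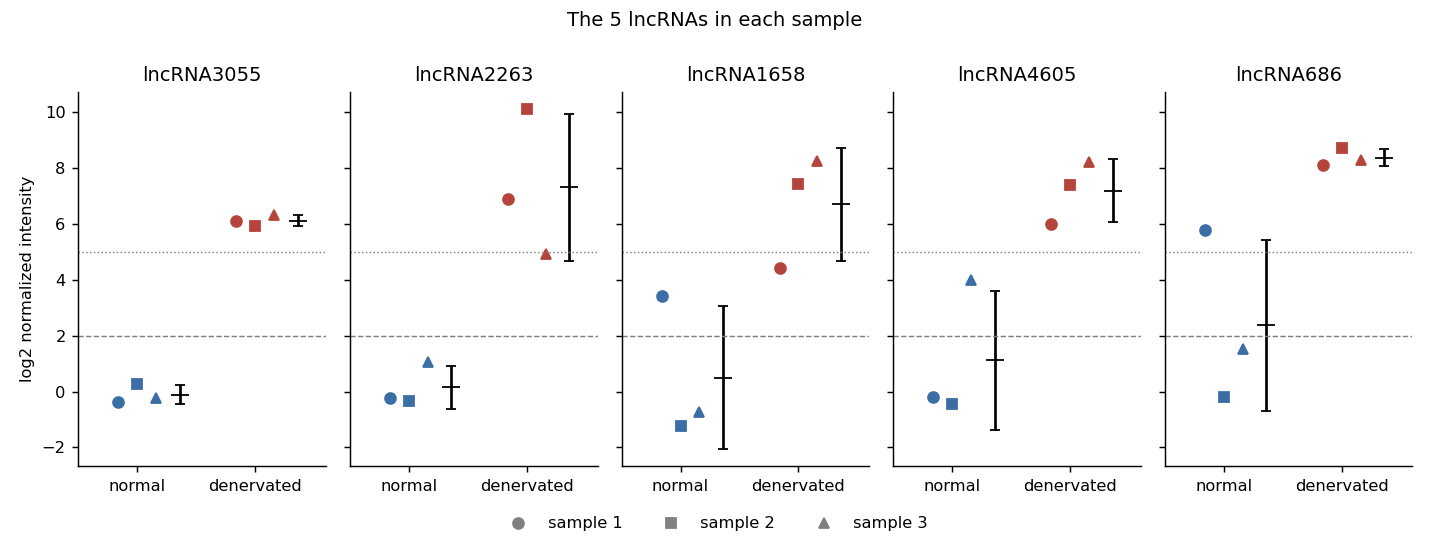
Log2 normalized intensity (y axis) of the 5 lncRNAs in each normal (blue) and denervated (red) sample, with the sample number as symbol and the mean with SD (n = 3) in black; the dashed line marks 2 and the dotted line 5. All 15 denervated values lie above 4, and the normal values that leave the low end are normal 1 of lncRNA1658 and lncRNA686 and normal 3 of lncRNA4605.

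To see how far the differences depend on the low end of the scale, every value below 5 was raised to 5. This changed 14 of the 15 normal values and 2 of the 15 denervated values. lncRNA686 then had the largest difference of the 5, with 8.36 ± 0.30 against 5.25 ± 0.44 (SD, n = 3 each) and a log2 difference of 3.11. lncRNA2263 followed with a log2 difference of 2.33, lncRNA4605 with 2.18 and lncRNA1658 with 1.89. lncRNA3055, second in the order of the deposited values, came last with 1.11. Apart from normal 1 of lncRNA686, every normal sample sat at the floor itself, so these differences give the height of the denervated samples above 5 and carry no information on the normal level. With this floor lncRNA3055, lncRNA4605 and lncRNA686 kept the order of groups that the rule had required of them. The share of all lncRNAs with groups apart at this floor was not counted, so this is no result about the members. Denervated 3 of lncRNA2263 and denervated 1 of lncRNA1658 fell on the floor together with the normal samples.

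The order among all lncRNAs changed with it. As deposited, the 5 took ranks 1 to 5 by log2 difference among the 6711 lncRNAs. After the floor, lncRNA686 held rank 1, lncRNA2263 rank 10, lncRNA4605 rank 14, lncRNA1658 rank 32 and lncRNA3055 rank 256. The median difference of the 5 was 6.20 as deposited and 2.18 with the floor, beside 0.02 and 0.01 over all lncRNAs. The members were chosen on this contrast, so these ranks and medians reflect the selection and are no result. A lower floor of 2 gave 4.11 for lncRNA3055, 5.30 for lncRNA2263, 4.22 for lncRNA1658, 4.52 for lncRNA4605 and 5.11 for lncRNA686. A floor of 7 lies above all values of lncRNA3055 and left it with no difference.

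**Figure D3:**
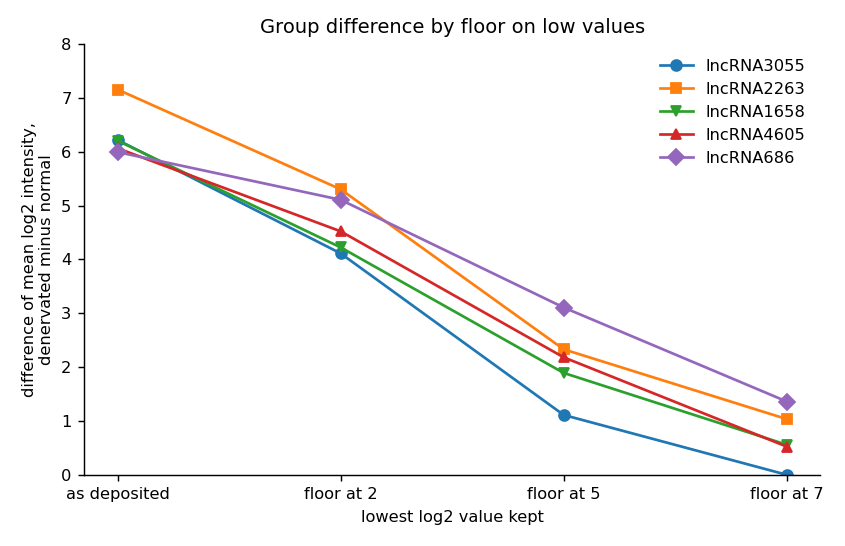
Difference of mean log2 intensity, denervated minus normal (y axis, n = 3 per group), for each of the 5 lncRNAs as deposited and with values below 2, 5 or 7 raised to that floor (x axis). The 5 differences lie between 5.99 and 7.15 as deposited, and between 1.11 and 3.11 with the floor at 5, where lncRNA686 is highest and lncRNA3055 lowest.

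The numerical conditions alone, without the list of names, were met by 22 lncRNAs, which is 0.328% of all 6711, and the 5 members are those with the largest differences. Denervated samples all above normal samples were found for 226 lncRNAs (3.37%) and all below for 170 (2.53%), whatever the level. Since the rule required this order, the 5 of 5 members that show it are no result. In the opposite direction, lower in all denervated samples with at least 2 values under 2, there were 6 lncRNAs (0.0894%), with log2 differences from -5.95 to -0.33. At the thresholds of the methods, which ask for a log2 difference over 1 with an unadjusted p below 0.05, limma called 70 lncRNAs higher (1.04%). The methods name limma but take the p-value from a Product Rank test, which was not run here. The 70 therefore rest on another p-value than the authors' own count. At an unadjusted limma p below 0.05 alone there were 132. With Benjamini-Hochberg adjustment limma called 1 at 0.05, lncRNA3055 itself, from the same contrast that chose it. The count is given as background only, and the call is no support for the difference of lncRNA3055. Leaving out a sample moved these counts: without denervated 3 the 22 became 72, and they became 49 if normal 2 and 35 if normal 3 was dropped, and the 226 became between 348 and 1006. The 70 became 245 when normal 2 was dropped, 133 when denervated 3 and 39 when denervated 1 was, and dropping denervated 3 took the 1 to 9. Dropping denervated 1, normal 1 or normal 3 left 0, and dropping either denervated 2 or normal 2 gave 2.

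**Figure D4:**
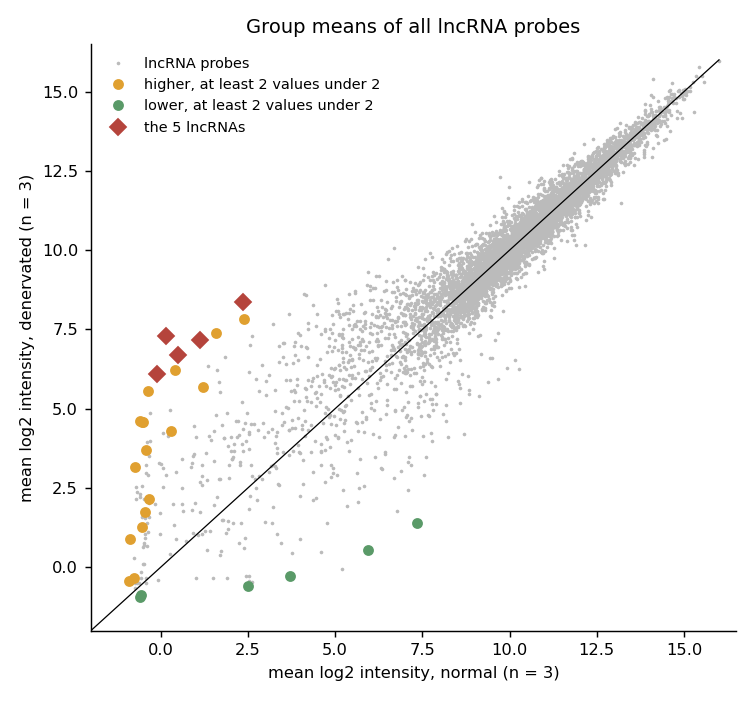
Mean log2 intensity of each lncRNA probe in the normal (x axis) and denervated (y axis) samples, n = 3 each, with the line of equal means. The 5 lncRNAs (red diamonds) lie at the upper left among the 22 that met the numerical conditions (the other 17 in orange), and the 6 of the opposite direction are green.

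The other 17 lncRNAs that met the conditions had log2 differences from 0.41 to 5.92, with a median of 4.11. In 13 of them all 3 normal samples read under 2, which among the 5 held for 2, lncRNA3055 and lncRNA2263. A denervated sample under 2 was present in 10 of the 17 and in none of the 5. The 5 have larger differences than these 17, which favours this contrast. For 2 of them, lncRNA1971 and lncRNA5538, all 6 samples were under 2. With the floor at 5, 5 of the 17 kept a log2 difference above 1, namely lncRNA971 (2.79), lncRNA3808 (2.27), lncRNA937 (1.32), lncRNA1063 (1.24) and the probe of Mir3545 (1.22), and 5 fell to 0.

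The condition of 2 values under 2 has a sharp edge. Of the members, lncRNA686 came nearest to it with a second-lowest value of 1.54, followed by lncRNA4605 with -0.20. Just outside were lncRNA2696, whose second-lowest value was 2.09 and whose group means were 7.0 (denervated) and 2.57 (normal), and lncRNA2719 with 3.98 and group means of 5.94 and 2.72.

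Among the 17, RefSeq names 2 as microRNA genes. The probe of Mir3545 read 6.19, 7.21 and 5.27 in denervated 1, 2 and 3 and 2.09, -0.67 and -0.19 in normal 1, 2 and 3. That of Mir410 read 2.96, 4.28 and 6.49 against -0.63, -0.24 and -0.70. Their mature sequences, from RefSeq (GRCr8), are shown because these 2 have a RefSeq microRNA name. Such names were looked up only for probes that the array lists by a RefSeq transcript. Ensembl probes and rat matches of mouse transcripts among the 22 were not searched for microRNA genes. Both genes lie on chromosome 6, Mir3545 on the minus strand and Mir410 on the plus strand. Capitals mark the seed, bases 2 to 8, which pairs with target messenger RNAs. The 4 seeds differ from each other, and the array probes report the transcript named, not the mature arm.
rno-miR-203b-5p (Mir3545): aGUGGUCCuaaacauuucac
rno-miR-203b-3p (Mir3545): uUGAACUGuuaagaaccacugg
rno-miR-410-5p (Mir410): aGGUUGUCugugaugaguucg
rno-miR-410-3p (Mir410): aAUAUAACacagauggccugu

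The array also carries measurements that the rule did not use. The mouse transcript NR_034051 was matched to 3 places of the rat genome, and each has a probe of its own. Besides lncRNA1658 these are lncRNA3388 on chromosome 6 from 84014804 to 84014910 and lncRNA4405 on chromosome 2 from 116843902 to 116844008, both 107 bases long. The sequences of these places and of their probes were not compared. The probes may share signal, so each value is uncertain as a reading of its own locus. lncRNA3388 read 8.31, 9.999 and 8.51 in denervated 1, 2 and 3 and 9.53, 5.52 and 7.19 in normal 1, 2 and 3. The groups overlapped, and the log2 difference was 1.53 with a standard error of 1.08 (limma over all probes, adjusted p = 0.9999). lncRNA4405 read 9.99, 9.38 and 10.11 against 10.01, 9.45 and 9.34. Its groups overlapped as well, with a log2 difference of 0.22 and a standard error of 0.35 (limma, adjusted p = 0.9999). Both probes were brighter than lncRNA1658 in every sample. In lncRNA3388 normal 1 was the highest and normal 2 the lowest normal sample, as in lncRNA1658.

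Close to lncRNA686, lncRNA1485 lies on the same strand of chromosome 10 from 61729108 to 61729198, with 203 bases between the annotated spans. It is a rat match of NR_029794 and 91 bases long. lncRNA1485 read 12.52, 12.00 and 12.86 in denervated 1, 2 and 3, and 11.88, 13.17 and 12.15 in normal 1, 2 and 3. It was thus bright in all samples, between percentiles 80.7 and 93.5, and highest in normal 2, where lncRNA686 was lowest. The log2 difference was 0.06 with a standard error of 0.45 (limma, adjusted p = 0.9999).

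**Figure D5:**
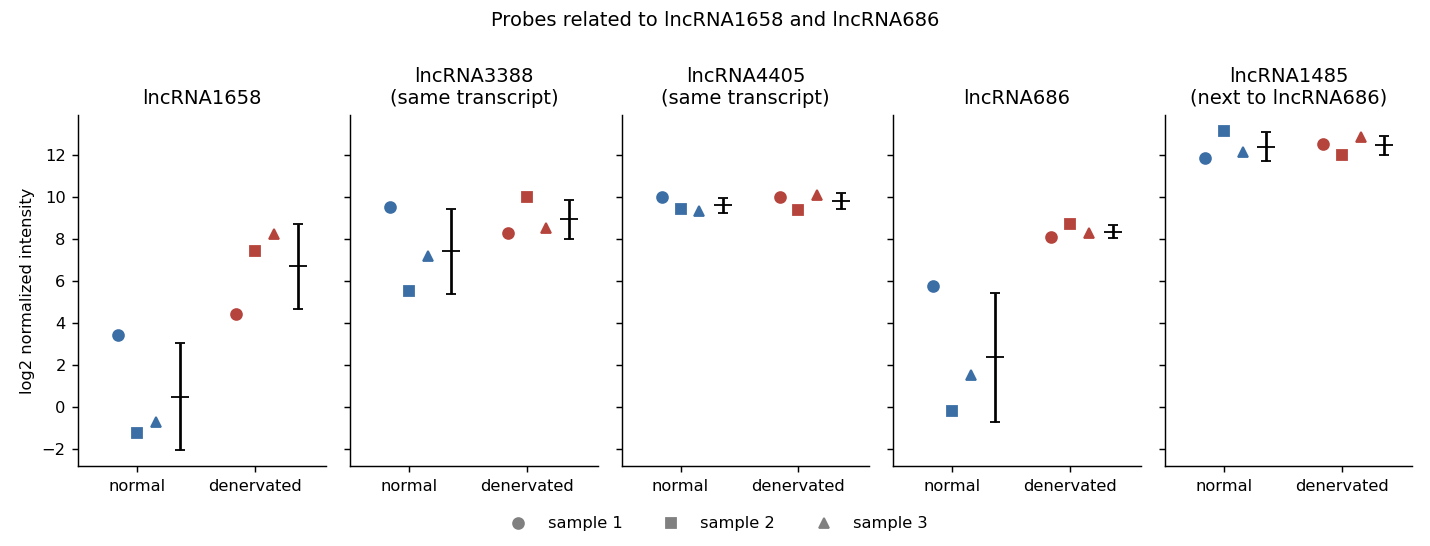
Log2 normalized intensity (y axis) in the normal (blue) and denervated (red) samples for lncRNA1658, the 2 other probes of its mouse transcript, lncRNA686 and the probe 203 bases from it, with the sample number as symbol and mean with SD (n = 3) in black. lncRNA3388, lncRNA4405 and lncRNA1485 overlap between the groups and lie at 5.52 or above in every sample.

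Further probes from the same annotation source lay within 300000 bases of 4 of the 5. For lncRNA3055 this was lncRNA5123, with 227679 bases between and a log2 difference of 0.37 ± 0.37 (SE). For lncRNA4605 it was lncRNA2166, with 168161 bases between and a difference of -0.05 ± 0.33 (SE). lncRNA1658 had lncRNA3577 at -0.08 ± 0.76 (SE), and lncRNA686 had lncRNA1180, lncRNA3160 and lncRNA5541 at 0.38 ± 0.48, -0.66 ± 0.42 and 0.18 ± 0.39 (SE). No sample of these 6 read under 7, all had overlapping groups, and limma gave each an adjusted p of 0.9999. lncRNA2263 had no such neighbour.

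Over the 6 samples the 5 lncRNAs varied together, and their selection on 1 group order favours this. Pearson correlations of the 10 pairs ranged from 0.727 for lncRNA4605 with lncRNA686 to 0.948 for lncRNA1658 with lncRNA686. The last pair shares a normal 1 well above normal 2 and normal 3. All such correlations rest on 6 points that share the same arrays and 2 groups, and are descriptions only.

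For each member the 3 lncRNAs with the highest correlation over the 6 samples were listed, with r from 0.946 to 0.990. Of these 15 entries, 12 had no value under 2. The profile of lncRNA3055 was closest to that of lncRNA6601 (r = 0.988), another of the 22, at 6.09, 4.57 and 6.01 in the denervated and -0.50, -0.40 and -0.20 in the normal samples. Next came lncRNA6116 and lncRNA1989 (r = 0.975 and 0.969), bright probes with log2 differences of 1.04 and 0.68. For lncRNA2263 they were lncRNA4999, lncRNA4870 and lncRNA5847 (r = 0.985, 0.969 and 0.966), with differences of 0.65, 0.40 and 0.54 at levels of 11.25 or more. For lncRNA1658 they were lncRNA1342 (r = 0.963), lncRNA686 (r = 0.948) and lncRNA3109 (r = 0.946).

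lncRNA4605 was most like lncRNA650, lncRNA2664 and lncRNA5135 (r = 0.970, 0.962 and 0.957), whose log2 differences were 0.62, 0.49 and 1.37. lncRNA686 was most like lncRNA971 (r = 0.990), also one of the 22, with 7.53, 8.65 and 7.32 in the denervated and 5.12, 0.79 and 1.26 in the normal samples. lncRNA2925 and lncRNA3295 followed (r = 0.982 and 0.980) with log2 differences of 1.73 and 1.66 and no value under 5. Profiles of like shape were thus found at levels from the low mode to above 13, with differences that were smaller at the bright probes listed.

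Of 25 marker genes listed for neurons, oligodendrocytes, myeloid and blood cells, vessels, liver and muscle, 14 had a probe named through RefSeq. Bc1, a noncoding RNA of neurons, read 15.97 to 15.99 in all samples, the top of the scale. It set the summed level of the neuronal list, which was 15.99 or above in every sample and 16.02 in the normal samples. The vessel marker had no named probe. The other 4 measured neuronal probes were microRNA genes and differed in level: Mir9-3 ranged from 8.22 to 10.26, Mir128-1 from 7.77 to 9.07, Mir124-3 from -0.22 to 7.60 and Mir9-2 from -0.61 to 7.93. The first pair never came near the low mode, and the second pair reached it in at least 1 sample. Summed over measured members, the lists spanned 10.95 to 11.25 in the denervated and 11.13 to 11.17 in the normal samples for oligodendrocytes, and 10.31 to 10.91 and 10.38 to 10.90 for myeloid and blood cells. The liver microRNA gene Mir122 read 12.15 to 12.86, so a bright precursor probe on this array does not by itself mark a tissue. The muscle list spanned 10.20 to 10.60 and 9.77 to 10.48. Apart from Bc1, whose groups differed by 0.02 at the top of the scale, all measured markers had overlapping groups, and their part in the differences of the 5 lncRNAs was not tested.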

How the data were processed

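RNA of 3 denervated and 3 normal rat hippocampi was measured on 1-colour arrays. The deposited values are log2 intensity: repeated spots were summarised by the authors as a median, arrays of a sample as a mean, and scaling was by their 50% method, with no background correction or filter on dim probes stated. The authors' comparison lists, which hold fold changes and p-values, were left aside. The labels say that a raw scan held a pair of samples, without naming the pairs, so a slide effect could not be examined.

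Values were used as deposited. The comparison of groups used lmFit and eBayes from limma 3.58.1 under R 4.3.3, with no block, over all 6716 probes, 6711 of them lncRNAs, with Benjamini-Hochberg adjustment; the procedure was tested on simulated data. p-values measure the spread between samples within the groups and leave any pairing aside. The methods mention 3 independent samples but also paired rats, so independence of the denervated and normal samples from each other is not stated. Percentiles count the probes below a value within a sample. Linear units are 2 to the power of the log2 value. RefSeq names come from the GRCr8 table. The members and lists were chosen with earlier results of these data known. Named are the members, the 3 probes most correlated with each, those meeting the conditions, those at the threshold, and markers, beside the probes of the same transcript or nearby on the array's coordinates, which were added after values had been seen. With 3 samples per group, array number limits precision. Alternatives were quantile normalization, array medians, floors, a probe filter, an intensity trend, a replicate block, the methods' t-test, other thresholds and leaving out each sample. Python 3.11.15 and matplotlib 3.10.9 were used. 1 probe is not reported here.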

Additional observations from a re-analysis of the deposited data

How the results depend on the processing

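The log2 differences of the 5 lncRNAs kept their direction under the alternatives run, except that a floor of 7 left lncRNA3055 at 0, and 58 of 70 values moved by less than 1 SD of the replicates. The others moved toward 0. The kept direction is no result, because the rule put every denervated value above every normal value. Floors, group medians, linear means and leaving out a sample could therefore not reverse it. A second deposited set of the values repeated the same differences. Quantile normalization gave lncRNA3055 a difference of 4.02. Raising values below 2 to 2 gave it 4.11. The floor of 5 gave 1.11 for lncRNA3055, 2.33 for lncRNA2263, 1.89 for lncRNA1658, 2.18 for lncRNA4605 and 3.11 for lncRNA686, and the floor of 7 gave 0, 1.03, 0.56, 0.52 and 1.36 in that order. A floor raises the low normal values by its construction. For the change under quantile normalization the cause was not tested. Without 1 sample the differences ranged from 6.09 to 6.41 for lncRNA3055, 5.75 to 8.35 for lncRNA2263, 5.34 to 7.67 for lncRNA1658, 5.29 to 7.49 for lncRNA4605 and 4.71 to 7.69 for lncRNA686.

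The 70 lncRNAs called higher became 39 with the floor of 7, 26 in the upper 50% of probes, which holds fewer probes, and 37 with the methods' t-test, and ranged from 39 to 245 without 1 sample. The 1 lncRNA that limma called after adjustment was lost, leaving 0, with the replicate block described below and under 6 other alternatives that kept all samples. These 6 were quantile normalization, the floor of 5, the floor of 7, the brighter 50% of probes, an intensity trend and the methods' t-test, where 144, 170, 188, 78, 143 and 162 had an unadjusted p under 0.05. The loss of lncRNA3055 was fixed in advance at the floor of 7, which left it no difference. It was also fixed in the brighter 50% of probes, which do not include it. Without 1 sample the adjusted count ranged from 0 to 9. The 22 that met the conditions ranged from 24 to 72, and the 226 with groups apart from 348 to 1006, without 1 sample; fewer samples make such an order easier to meet. Other thresholds for a low value, and at least 1 or 3 low values, left the 22 within 15 to 33. The cause of the other changes was not tested.

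Samples of equal number did not deviate together (correlations of -0.05, -0.52 and -0.35), and the labels do not tie a number to a rat, so the number was not taken as a pairing. With the number as a replicate block, 51 lncRNAs were called higher, 0 passed the adjusted p and 62 had an unadjusted p under 0.05. A block leaves the differences of the 5 as they are.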
